A study of Mus musculus with 6 samples.

Results

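The genes described are 6 ligands and 4 response genes of bone morphogenetic protein (BMP) and transforming growth factor beta (TGF-beta) signalling in mouse hair follicle stem cells, read by symbol from a table of 23377 genes. All 10 were found and all 10 passed the low-count filter that left 13134 genes for testing. The ligands are Bmp2, Bmp4, Bmp7, Tgfb2, Tgfb3 and Inhbb, and the response genes are Id1, Id2, Id3 and Smad7. They were chosen by name with earlier results of these data known, so their counts are descriptions of the set and not independent evidence about the pathway.

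RNA-seq was made from sorted hair follicle stem cells of C57BL/6 mice with the genotype Ring1a/b-/- (here RingKO, 2 libraries) or wild type (WT, 2 libraries). PRC1, the Polycomb complex that ubiquitinates histone H2A and represses developmental genes, takes either Ring1a or Ring1b as its enzyme. The title of the study poses the question of what loss of PRC1 activity does to transcription in stem cells. Each library came from 3000 cells by SMART-seq2, a full-length method with PCR amplification. The driver and timing of the deletion, the age and sex of the mice and any pooling of animals were not stated in the labels. Nothing there ties the libraries to separate mice, so the tests weigh library-to-library spread that may be only technical.

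BMP and TGF-beta ligands are secreted dimers that bind pairs of type I and type II serine/threonine kinase receptors. BMP ligands mainly activate Smad1, Smad5 and Smad9, while TGF-beta and activin ligands mainly activate Smad2 and Smad3, and both groups share Smad4. In the hair follicle, BMP signals keep stem cells at rest, and TGF-beta2 from the dermal papilla is known to counter them when a new hair cycle starts. Id1, Id2 and Id3 are classical direct targets of BMP signalling, and Smad7 is a feedback inhibitor that both branches induce.

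Total counts were 4844381 and 7740945 in the RingKO libraries and 2785843 and 3056593 in the WT libraries, so the RingKO pair was the deeper. The 12 markers of hair follicle stem cells summed to 2269 and 1923 CPM (counts relative to the TMM-scaled size of the library) in RingKO and 1988 and 2141 CPM in WT, and each had counts in all 4 libraries except Nfatc1, at 0 in WT replicate 1. Of these, 4 were higher in both RingKO libraries (24.8% of all genes tested) and 3 were lower (22.3%). Among the higher were Sox9 (172 and 156 CPM in RingKO, 49.4 and 95.1 CPM in WT) and Nfatc1 (38.8 and 34.0 CPM in RingKO, 0 and 2.34 CPM in WT). Nfatc1, with 0 and 7 WT counts, passed the filter through the RingKO libraries alone. Among the lower were Krt15 (303 and 250 CPM in RingKO, 417 and 362 CPM in WT) and Cd34 (15.3 and 2.61 CPM in RingKO, 24.3 and 20.4 CPM in WT). Ring1, which encodes Ring1a, had 15.5 and 18.4 CPM in RingKO and 31.9 and 29.4 CPM in WT, and Rnf2, which encodes Ring1b, had 151 and 153 CPM in RingKO and 144 and 87.8 CPM in WT. Counts were taken over the whole of each gene and the labels do not name the deleted part, so neither level checks the genotype.

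Promoter windows from RefSeq (build GRCm38.p6, 250 bases before to 50 bases after the gene start) were at hand for 5 of the 10 genes. They are shown for the ligands Bmp4 and Inhbb, which stood higher in RingKO, and for Id3, which stood lower, 5′ to 3′ on the gene's strand, with CAGAC or its reverse complement GTCTG, a letter core bound by Smad3 and Smad4, in capitals. Bmp4 is at chr14:46390620-46390919 (minus strand), Inhbb at chr1:119422199-119422498 (minus strand) and Id3 at chr4:136143572-136143871 (plus strand).
Bmp4: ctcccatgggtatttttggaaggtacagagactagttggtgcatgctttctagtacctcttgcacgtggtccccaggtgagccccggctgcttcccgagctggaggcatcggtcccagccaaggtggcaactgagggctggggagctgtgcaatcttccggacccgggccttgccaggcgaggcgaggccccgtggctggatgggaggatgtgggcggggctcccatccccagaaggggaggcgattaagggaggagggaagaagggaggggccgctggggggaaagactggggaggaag
Inhbb: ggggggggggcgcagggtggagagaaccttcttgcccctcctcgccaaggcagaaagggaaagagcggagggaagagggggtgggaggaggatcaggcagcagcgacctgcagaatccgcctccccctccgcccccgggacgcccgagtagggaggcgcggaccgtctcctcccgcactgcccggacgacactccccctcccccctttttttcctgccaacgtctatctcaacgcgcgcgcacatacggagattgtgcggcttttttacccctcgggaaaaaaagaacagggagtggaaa
Id3: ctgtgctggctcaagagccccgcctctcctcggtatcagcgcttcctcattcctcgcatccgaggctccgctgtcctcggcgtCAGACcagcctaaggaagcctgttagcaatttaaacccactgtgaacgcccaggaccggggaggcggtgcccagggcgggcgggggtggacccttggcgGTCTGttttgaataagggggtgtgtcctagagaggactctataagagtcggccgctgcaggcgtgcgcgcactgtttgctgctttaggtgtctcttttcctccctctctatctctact
CAGAC on either strand occurred 2 times in the Id3 window and 2 times in that of Tgfb2, and in none of the windows of Bmp4, Inhbb and Id2, against 49.6% of 32851 windows of the same length with at least 1. The palindrome GGCGCC, a core described for Smads of the BMP branch, occurred once in the Id2 window and in none of the windows of Bmp4, Tgfb2, Inhbb and Id3, against 11.9% of all windows. The searched motifs share no overlapping match in these windows, and a match is a description of letters only. The windows held 12 CpG dinucleotides at Bmp4, 10 at Tgfb2, 23 at Inhbb, 21 at Id2 and 19 at Id3, against a median of 7 over all windows. The spread over all windows was wide. Fewer CpG were held by 60.4% of them than at Bmp4, 56.5% than at Tgfb2, 78.5% than at Inhbb, 75.2% than at Id2 and 71.9% than at Id3. Ring1b peaks of the same study carry positions on another build and were not used here.

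Most of the ligands stood at higher levels in the RingKO libraries, and the response genes did not. Bmp4, Bmp7, Tgfb2, Tgfb3 and Inhbb were each higher in both RingKO libraries than in either WT library. Id3 was lower in both RingKO libraries, at about 1 log2 unit, while Id1, Id2 and Smad7 differed by less than 0.3 log2 units. In edgeR's quasi-likelihood test with adjustment over all genes, 0 of the 10 passed an adjusted p of 0.05, where 0.0609% of all genes tested did. At an unadjusted p under 0.05 in edgeR, 5 of 6 ligands were higher (8.47% of all genes tested) and 1 of 4 response genes was lower (8.16%). DESeq2 called the same genes at an adjusted p under 0.05, 5 ligands higher (6.21% of genes with an adjusted p) and Id3 lower (6.14%). Of the 5 ligands, Tgfb3 passed the low-count filter through the RingKO libraries alone and could hardly have been lower there. The authors' deposited table, made from the same counts, has nearly the same values as DESeq2 here and is not separate support. It has these 5 higher (6.21% of 14502 genes with an adjusted p) and 1 lower (6.14%) at that threshold.

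**Figure D1:**
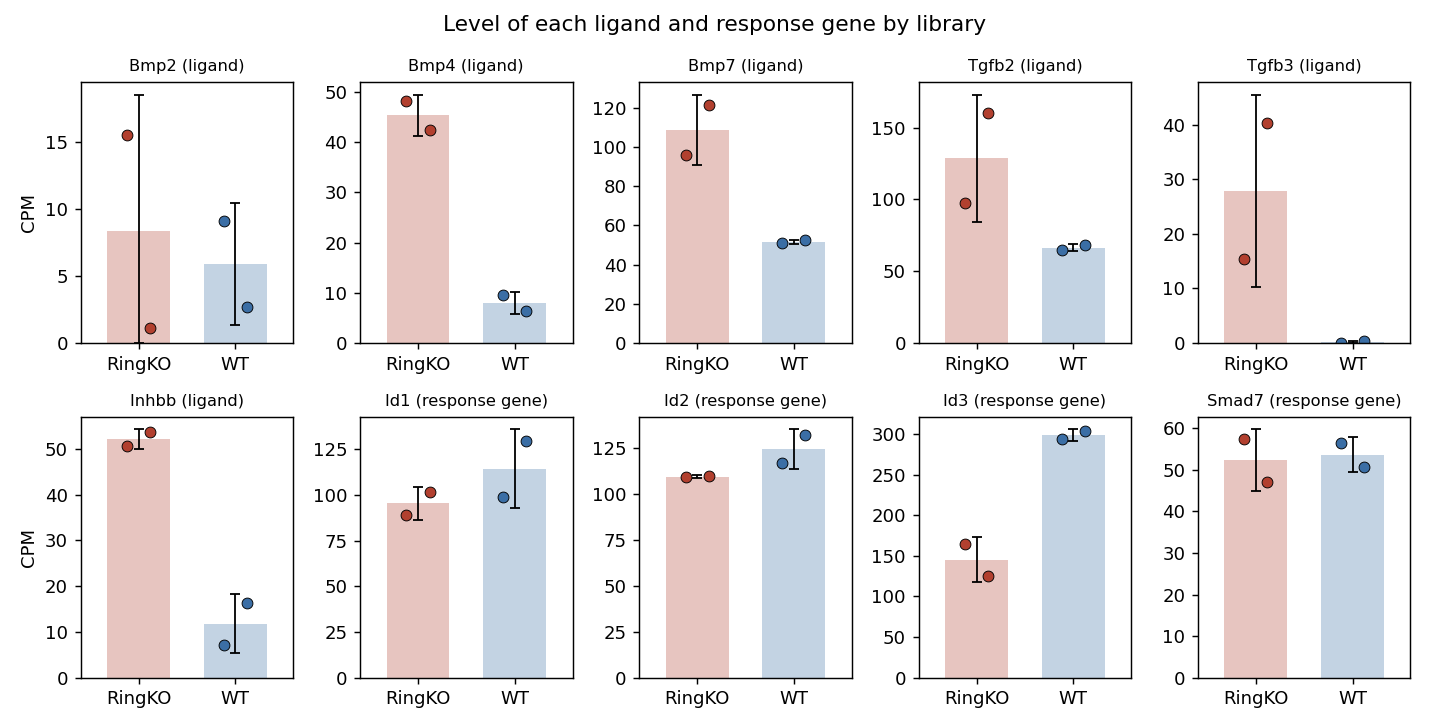
Level (CPM, counts relative to the TMM-scaled size of the library) of the 6 ligands and 4 response genes in RingKO (red) and WT (blue). Points are libraries, bars are means and error bars are 1 SD (n = 2 each, the lower end stopped at 0), and each panel has its own axis from 0. Points of RingKO lie above those of WT for Bmp4, Bmp7, Tgfb2, Tgfb3 and Inhbb and below them for Id2 and Id3.

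Among Bmp2, Bmp4 and Bmp7, Bmp4 had the largest fitted change with all 4 libraries. Bmp4, a ligand made in the dermal papilla and in follicle epithelium, had 48.3 and 42.4 CPM in RingKO (239 and 341 counts) and 9.49 and 6.34 CPM in WT (25 and 19 counts). The RingKO libraries lay close together and far above both WT libraries. The difference was 5.72-fold, a log2 fold change of 2.52 ± 0.61 (SE), with an edgeR adjusted p of 0.149 and a DESeq2 adjusted p of 7.9e-05. Leaving out any 1 library left the log2 fold change of Bmp4 between 2.23 and 2.84.

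Bmp7, a BMP of epithelia that can pair with Bmp4 or Bmp2, had 96.1 and 121 CPM in RingKO and 50.9 and 52.4 CPM in WT. The WT libraries were almost equal and the RingKO libraries were both about 1 log2 unit above them. Its log2 fold change was 1.07 ± 0.28 (edgeR adjusted p = 0.149, DESeq2 adjusted p = 0.00134). Bmp7 stayed between 0.88 and 1.23 log2 units when any 1 library was left out.

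Bmp2, the close relative of Bmp4 known from hair precursors and subcutaneous fat in the hair cycle, had 15.5 and 1.12 CPM in RingKO and 9.11 and 2.67 CPM in WT. Its groups overlapped, and the libraries of each genotype differed more from each other than the group means did. The RingKO libraries held 77 and 9 counts of Bmp2, with the higher number in the shallower library. The log2 fold change of 0.49 ± 1.4 did not pass (edgeR adjusted p = 0.928), and its 95% interval ran from -2.71 to 3.69, so no difference in Bmp2 was detectable at this spread. Without RingKO replicate 1 the value was -2.36, and without RingKO replicate 2 it was 1.38.

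On the TGF-beta and activin side, Tgfb3 was near silent in WT. Tgfb3, a TGF-beta isoform known for palate fusion and wound repair, had 15.3 and 40.3 CPM in RingKO (76 and 324 counts) and 0 and 0.334 CPM in WT (0 and 1 counts). Both RingKO libraries carried clear expression, although they differed from each other, and the WT libraries had at most 1 count. The ratio was 173 with a 95% counting interval of 30.9 to 6867, and edgeR fitted a log2 fold change of 7.11 ± 1.39 (adjusted p = 0.124). With WT replicate 2 left out the WT had 0 counts and Tgfb3 was at least 27.0-fold higher in RingKO, and with WT replicate 1 left out the ratio was 92.3 (16.5 to 3655). It was 227 (40.5 to 8997) without RingKO replicate 1 and 86.4 (15.05 to 3457) without RingKO replicate 2. DESeq2 gave Tgfb3 an adjusted p of 0.000465. With so few WT counts, the gene passed the low-count filter through the RingKO libraries alone and could hardly have been lower there.

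Tgfb2, the isoform that the dermal papilla sends to follicle stem cells, had 97.1 and 160 CPM in RingKO and 64.5 and 68.1 CPM in WT. RingKO replicate 2 stood well above the other libraries, and RingKO replicate 1 was above WT by a smaller step. The log2 fold change was 0.96 ± 0.30 (edgeR adjusted p = 0.177, DESeq2 adjusted p = 0.0171). It was 0.54 without RingKO replicate 2 and 1.27 without RingKO replicate 1, so its size depended on a single library.

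Inhbb, which encodes the activin beta B chain, had 50.7 and 53.7 CPM in RingKO and 7.21 and 16.4 CPM in WT. The RingKO libraries agreed closely, and the WT libraries differed from each other by more than the RingKO libraries did. The difference was 4.41-fold, a log2 fold change of 2.14 ± 0.59 (edgeR adjusted p = 0.151, DESeq2 adjusted p = 0.00117). Without WT replicate 1 the log2 fold change of Inhbb was 1.68, and without WT replicate 2 it was 2.83.

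**Figure D2:**
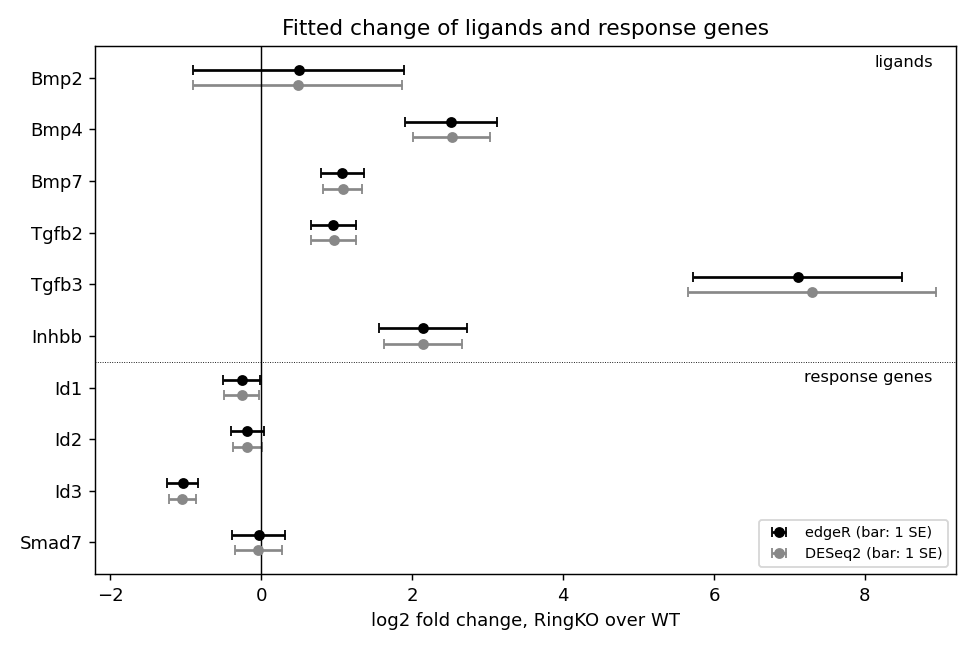
Fitted log2 fold change of RingKO over WT for the 6 ligands (top) and 4 response genes (bottom), by edgeR (black) and DESeq2 (grey), with bars of 1 SE. The ligands run from 0.49 for Bmp2 to 7.11 for Tgfb3 in edgeR, and the response genes from -1.04 for Id3 to -0.04 for Smad7.

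The Id genes encode helix-loop-helix proteins without a DNA-binding part, which capture other factors and hold back differentiation. Id3 had 165 and 126 CPM in RingKO and 294 and 304 CPM in WT. The WT libraries were nearly equal, and both RingKO libraries were far below them. The log2 fold change of Id3 was -1.04 ± 0.20 (edgeR adjusted p = 0.124, DESeq2 adjusted p = 2.95e-06), and it stayed between -1.25 and -0.87 when any 1 library was left out. With a trend of the log2 ratio on gene span and abundance removed, the value was -0.39 (edgeR adjusted p = 0.574).

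Id1 had 88.8 and 102 CPM in RingKO and 99.1 and 129 CPM in WT, and the groups overlapped. Its log2 fold change of -0.26 ± 0.25 did not pass (edgeR adjusted p = 0.693), with a 95% interval of -0.83 to 0.31. Id2 had 109 and 110 CPM in RingKO and 117 and 132 CPM in WT, without overlap but with a difference of means no larger than the gap between the WT libraries. For Id2 the log2 fold change was -0.18 ± 0.22 (edgeR adjusted p = 0.774), with a 95% interval of -0.69 to 0.32. With the trend on gene span and abundance removed, both turned to the other side of 0 (0.23 for Id1 and 0.21 for Id2), so neither carries a direction.

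Smad7, which blocks type I receptors, had 57.5 and 47.1 CPM in RingKO and 56.6 and 50.7 CPM in WT. The libraries of the genotypes were interleaved. The log2 fold change was -0.04 ± 0.35 (edgeR adjusted p = 0.983), with a 95% interval of -0.85 to 0.77, so a moderate change in either direction could not have been seen, and the sign turned under upper-quartile scaling (0.05). None of the 4 response genes was higher in both RingKO libraries than in both WT libraries, and Id2 and Id3 were lower in both. Groups did not overlap for 5 of 6 ligands, all higher in RingKO (24.8% of all genes tested), and for 2 of 4 response genes, both lower (22.3%). The median log2 fold change was 1.61 over the ligands and -0.22 over the response genes, against 0.03 over all genes tested. Tgfb3, with 0 and 1 WT counts, passed the low-count filter through the RingKO libraries alone. The ligand median and the count of 5 ligands rest partly on that gene.

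The wider pathway was read from lists of genes by role. Of 26 other ligands in the table, 6 were expressed enough to test, 0 passed edgeR's adjusted p, 0 had an unadjusted p under 0.05 and 0 were called by DESeq2, with a median log2 fold change of 1.25. Inhba (7 and 0 WT counts) and Bmp8b (6 and 7 WT counts) passed the filter through the RingKO libraries alone, so the median and the separation of their groups rest partly on the filter. Inha, the inhibin alpha chain that pairs with activin chains to antagonise them, had the highest counts of these, with 34.3 and 34.9 CPM in RingKO and 10.6 and 20.4 CPM in WT (log2 fold change 1.15 ± 0.63). Both RingKO libraries of Inha lay above both WT libraries, as did those of Inhba, the activin beta A chain (12.3 and 3.86 CPM in RingKO, 2.66 and 0 CPM in WT), and Bmp8b (3.84 and 17.1 CPM in RingKO, 2.28 and 2.34 CPM in WT). These were 3 of the 6 tested, where 24.8% of all genes tested separated in that direction. Bmp6, another BMP of bulge cells, was scattered at 9.89 and 0.498 CPM in RingKO and 0 and 4.0 CPM in WT. Tgfb1, the isoform best known from immune cells and wounds, had 5.05 and 10.8 CPM in RingKO and 6.08 and 3.0 CPM in WT. Gdf10, a TGF-beta2 target in follicle stem cells, was not expressed enough to test, with 28 and 1 counts in RingKO and 0 in both WT libraries.

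Of 13 receptor genes tested, 0 passed edgeR's adjusted p, 2 were higher (8.47% of all genes tested) and 1 lower (8.16%) at an unadjusted p under 0.05, and DESeq2 called the same numbers (6.21% and 6.14%), with a list median of 0.17. The shares over all genes are the same for the lists that follow. The type II receptor gene Bmpr2 had 309 and 278 CPM in RingKO and 328 and 298 CPM in WT, and the type I receptor gene Bmpr1a had 235 and 246 CPM in RingKO and 261 and 248 CPM in WT. The TGF-beta receptor genes Tgfbr1 (139 and 130 CPM in RingKO, 122 and 202 CPM in WT) and Tgfbr2 (104 and 68.5 CPM in RingKO, 69.9 and 83.1 CPM in WT) overlapped between genotypes. These 4 genes had log2 fold changes from -0.27 to 0.17.

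The receptor genes that differed were picked out after their values were seen. Bmpr1b, a type I BMP receptor known from cartilage and limb patterning, had 9.49 and 27.3 CPM in RingKO (47 and 219 counts) and 0 counts in both WT libraries, at least 38.4-fold higher when the WT pair is set to 3 counts in all (DESeq2 adjusted p = 0.000299, edgeR adjusted p = 0.147). That bound was between 17.8 and 51.2 when any 1 library was left out. With 0 WT counts, Bmpr1b, one of the 2 receptors counted as higher, entered the test through the RingKO libraries alone and could not have come out lower. Acvr1, a type I receptor for BMPs and activins, had 50.9 and 77.1 CPM in RingKO and 26.2 and 29.0 CPM in WT, a log2 fold change of 1.21 ± 0.42 (edgeR adjusted p = 0.201). Amhr2, the receptor for anti-Mullerian hormone, had 0 counts in RingKO and 9 and 13 counts in WT, at least 16.9-fold lower in RingKO with 3 counts set for the RingKO pair. That bound was between 6.45 (without RingKO replicate 2) and 18.8 when any 1 library was left out. Amhr2, the receptor counted as lower, entered the test through the WT libraries alone and could not have come out higher.

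Of the 6 Smad transducer genes, 0 passed edgeR's adjusted p, 1 was higher at an unadjusted p under 0.05 and 0 were called by DESeq2, with a median log2 fold change of 0.07. Smad5 had 233 and 207 CPM in RingKO and 161 and 252 CPM in WT, and Smad1 had 62.0 and 48.3 CPM in RingKO and 84.7 and 48.1 CPM in WT. Smad4, the partner shared by both branches, had 132 and 106 CPM in RingKO and 78.2 and 124 CPM in WT, and Smad2 had 147 and 172 CPM in RingKO and 169 and 139 CPM in WT. These 4 genes overlapped between genotypes. Smad3, picked out after its values were seen, had 81.2 and 74.8 CPM in RingKO and 10.6 and 45.0 CPM in WT, with the WT libraries far apart (log2 fold change 1.48 ± 0.59, edgeR adjusted p = 0.262).

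Of 23 extracellular antagonists and proteins that hold TGF-beta latent, 14 were tested. Of these, 11 had a log2 fold change above 0, as did 6871 of all 13134 genes tested. In edgeR 0 passed the adjusted p, and 2 were higher and 0 lower at an unadjusted p under 0.05. DESeq2 called 2 higher and 0 lower, and the median log2 fold change was 0.30. Nog, the BMP trap noggin, had 15 and 0 counts in RingKO and 0 in WT, and Grem1, another BMP trap, had 0 counts in all 4 libraries. Fst, the activin trap follistatin, had 30.7 and 12.4 CPM in RingKO and 11.8 and 6.67 CPM in WT, and Sostdc1, a BMP and Wnt antagonist of follicle epithelium, had 13.3 and 10.8 CPM in RingKO and 21.6 and 18.02 CPM in WT. Neither passed in edgeR or DESeq2. The abundant genes Fstl1 (239 and 262 CPM in RingKO, 230 and 190 CPM in WT), Ltbp3 (198 and 190 CPM in RingKO, 198 and 161 CPM in WT) and Ltbp4 (256 and 188 CPM in RingKO, 153 and 199 CPM in WT) had log2 fold changes from 0.11 to 0.34. The genes at an unadjusted p under 0.05, seen after the fact, were Ltbp1, which tethers latent TGF-beta in the matrix, at 57.1 and 46.8 CPM in RingKO and 12.5 and 20.4 CPM in WT, and Nbl1, a BMP antagonist of the DAN family, at 56.1 and 49.5 CPM in RingKO and 22.8 and 15.7 CPM in WT. DESeq2 gave them adjusted p-values of 0.00449 and 0.00743.

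Among 10 intracellular and membrane inhibitors, 0 passed edgeR's adjusted p, 1 was higher and 0 lower at an unadjusted p under 0.05, and DESeq2 called 1 higher, with a median log2 fold change of 0.34. The gene was Tmeff1, a transmembrane protein known in follicle stem cells as a TGF-beta2 target that dampens BMP signals, at 58.6 and 46.8 CPM in RingKO and 18.2 and 27.7 CPM in WT (log2 fold change 1.19 ± 0.47, edgeR adjusted p = 0.258, DESeq2 adjusted p = 0.0373). Both RingKO libraries of Tmeff1 were above both WT libraries. Smad6, the inhibitor of the BMP branch, had 25.8 and 16.3 CPM in RingKO and 1.52 and 16.4 CPM in WT, and Bambi, a decoy receptor, had 44.4 and 47.6 CPM in RingKO and 24.3 and 46.4 CPM in WT. Smad6 and Bambi had a WT replicate 1 far below the other 3 libraries. The corepressor genes Ski, Skil and Tgif1 had log2 fold changes from 0.04 to 0.21.

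Of 13 other response genes tested, 7 had a log2 fold change above 0 and 6 below, against 6871 above and 6263 below over all genes tested. Groups did not overlap for 5 that were higher (24.8% of all genes tested) and 2 that were lower (22.3%). In edgeR 0 passed the adjusted p, and 3 were higher and 0 lower at an unadjusted p under 0.05. DESeq2 called 2 higher, and the median log2 fold change of the list was 0.25. Msx2, a BMP-induced homeobox gene of the hair matrix, had 194 and 172 CPM in RingKO and 275 and 221 CPM in WT (log2 fold change -0.44 ± 0.20, edgeR adjusted p = 0.32). Id4 had 66.6 and 38.7 CPM in RingKO and 57.3 and 78.4 CPM in WT, Cdkn1a had 145 and 156 CPM in RingKO and 197 and 171 CPM in WT, and Junb had 128 and 123 CPM in RingKO and 139 and 115 CPM in WT.

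Seen after the fact, Ctgf, a matrix protein induced by TGF-beta and by YAP, had 32.7 and 32.0 CPM in RingKO and 1.14 and 1.67 CPM in WT (3 and 5 counts), a log2 fold change of 4.49 ± 0.88 (edgeR adjusted p = 0.124, DESeq2 adjusted p = 2.32e-06). Hey1, a target of Notch and BMP signals, had 45.6 and 4.85 CPM in RingKO and 1.90 and 0.334 CPM in WT, with a gap between the RingKO libraries larger than the difference of the group means. Col7a1, the collagen of anchoring fibrils, had 27.3 and 61.7 CPM in RingKO and 0 and 9.34 CPM in WT. These were the 3 genes of the list with an unadjusted p under 0.05. Ctgf and Hey1 (5 and 1 WT counts) passed the low-count filter through the RingKO libraries alone and could hardly have come out lower. They are also the 2 genes of the list that DESeq2 called. The 3 genes of highest mean CPM in the list, Msx2, Cdkn1a and Junb, had log2 fold changes from -0.44 to -0.02.

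**Figure D3:**
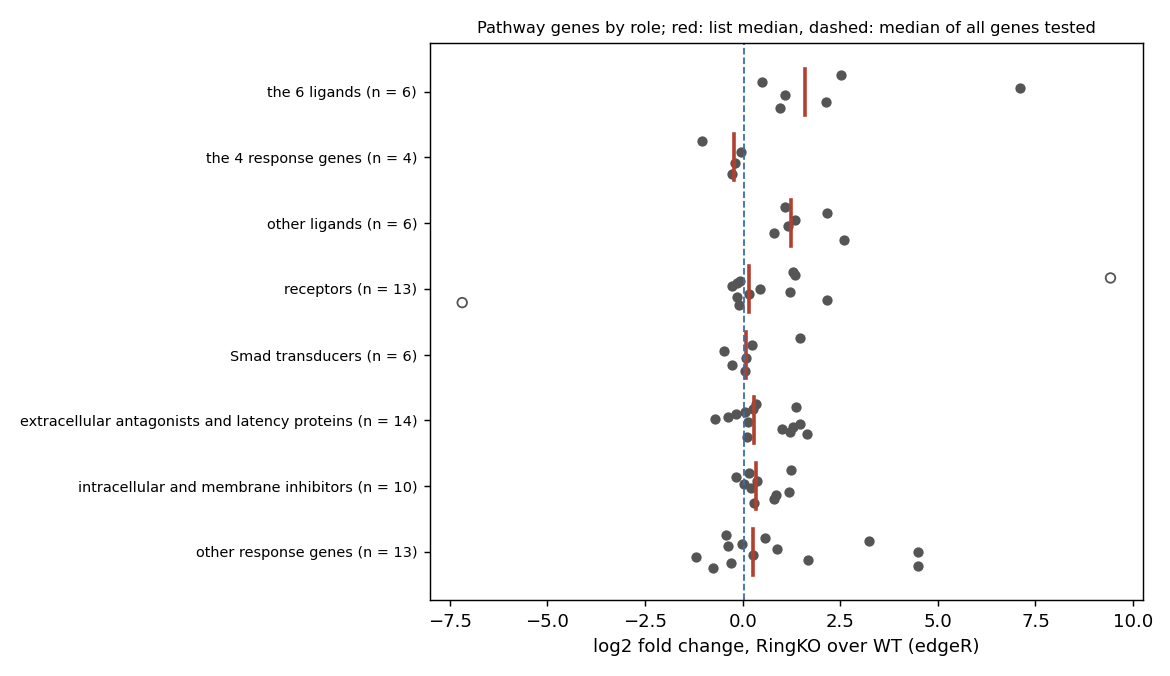
Log2 fold change of RingKO over WT (edgeR) for each tested gene of 8 lists by role. Filled points are genes with counts in both genotypes, open points are genes at 0 counts in 1 genotype (Bmpr1b and Amhr2), red bars are list medians (1.61 for the 6 ligands, 1.25 for the other ligands, -0.22 for the 4 response genes) and the dashed line is the median of all genes tested, 0.03.

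The genes with a profile most like that of Tgfb3 were Nrn1, Gfra1 and Bmpr1b, with root mean square distances of 0.198, 0.226 and 0.245 between centred log2(CPM + 1) profiles over 4 libraries. Nrn1 and Gfra1 had 0 counts in both WT libraries and more CPM in RingKO replicate 2 than in replicate 1, as Bmpr1b did. For Id3 the nearest were Gm20594, Rps4l and Rpl38, at distances of 0.0491 to 0.0594. Rpl38, a ribosomal protein gene, had 92.1 and 64.4 CPM in RingKO and 150 and 153 CPM in WT.

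Summed CPM of most marker lists of other cell types did not overlap between the genotypes, while that of Schwann and nerve markers did. Fewer cells of a type and less RNA per cell cannot be told apart in such bulk libraries. The 12 fibroblast and dermal papilla markers summed to 428 and 235 CPM in RingKO and 650 and 805 CPM in WT. Dcn made up most of this sum (272 and 159 CPM in RingKO, 593 and 430 CPM in WT). Of these markers 4 were higher in both RingKO libraries (24.8% of all genes tested) and 2 lower (22.3%). The higher were Crabp1, Sox2, Alx4 and Pdgfra, the same way as Bmp4, and the lower were Dcn and Lum. Crabp1 (34.7 and 27.6 CPM in RingKO) and Sox2 had 0 counts in WT and could not have come out lower. Col1a1, Col1a2 and Col3a1 overlapped between genotypes, with log2 fold changes of -2.03, -2.96 and -2.58. Corin had at most 0.373 CPM in any library. The 11 leukocyte markers in the table summed to 769 and 343 CPM in RingKO and 164 and 158 CPM in WT, with 6 higher in both RingKO libraries (24.8% of all genes tested) and Cd207 at 0 in all 4. Merkel cell markers (6 genes) summed to 78.9 and 109 CPM in RingKO and 7.97 and 31.4 CPM in WT, with 4 higher in both RingKO libraries (24.8% of all genes tested), among them Krt18 (39.4 and 41.0 CPM in RingKO, 3.42 and 5.34 CPM in WT), and with Atoh1, the defining factor, at 0 and 0.871 CPM in RingKO and 0 and 0.667 CPM in WT. The 12 markers of differentiating keratinocytes and hair lineages summed to 1865 and 1831 CPM in RingKO and 3258 and 2671 CPM in WT. That sum ran in the direction of Id3, but its genes moved both ways. In both RingKO libraries 6 were lower (22.3% of all genes tested) and 2 higher (24.8%). Krt71 was lower (433 and 378 CPM in RingKO, 1063 and 811 CPM in WT). Krt75 was higher (218 and 215 CPM in RingKO, 123 and 92.4 CPM in WT), and Krt10 and Ivl overlapped between genotypes. Endothelial and mural markers (8 genes, Emcn at 0 in all) summed to 13.7 and 64.6 CPM in RingKO and 163 and 179 CPM in WT. Acta2 made up most of the WT sum (9.89 and 46.7 CPM in RingKO, 158 and 138 CPM in WT). In this list 3 were lower in both RingKO libraries (22.3% of all genes tested) and 1 was higher (24.8%). The higher gene was Pdgfrb, at 3.23 and 17.4 CPM in RingKO and 0 and 1.33 CPM in WT. Pdgfrb (0 and 4 WT counts), like Crabp1 above, passed the low-count filter through the RingKO libraries alone. Rgs5, counted as lower, had 0 counts in RingKO and passed through the WT libraries alone. Melanocyte markers summed to 187 and 133 CPM in RingKO and 194 and 197 CPM in WT, Schwann and nerve markers to 27.9 and 44.9 CPM in RingKO and 18.6 and 34.4 CPM in WT (Sox10, in both lists, at 0 throughout), and sebocyte markers to 727 and 671 CPM in RingKO and 965 and 844 CPM in WT. Sox2, Lum, Kdr and Krt31 are counted in their lists although they did not pass the low-count filter, while the shares are over genes that did. In each marker list 0 genes passed edgeR's adjusted p, and the part of these cells in the ligand and Id3 values was not tested.

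**Figure D4:**
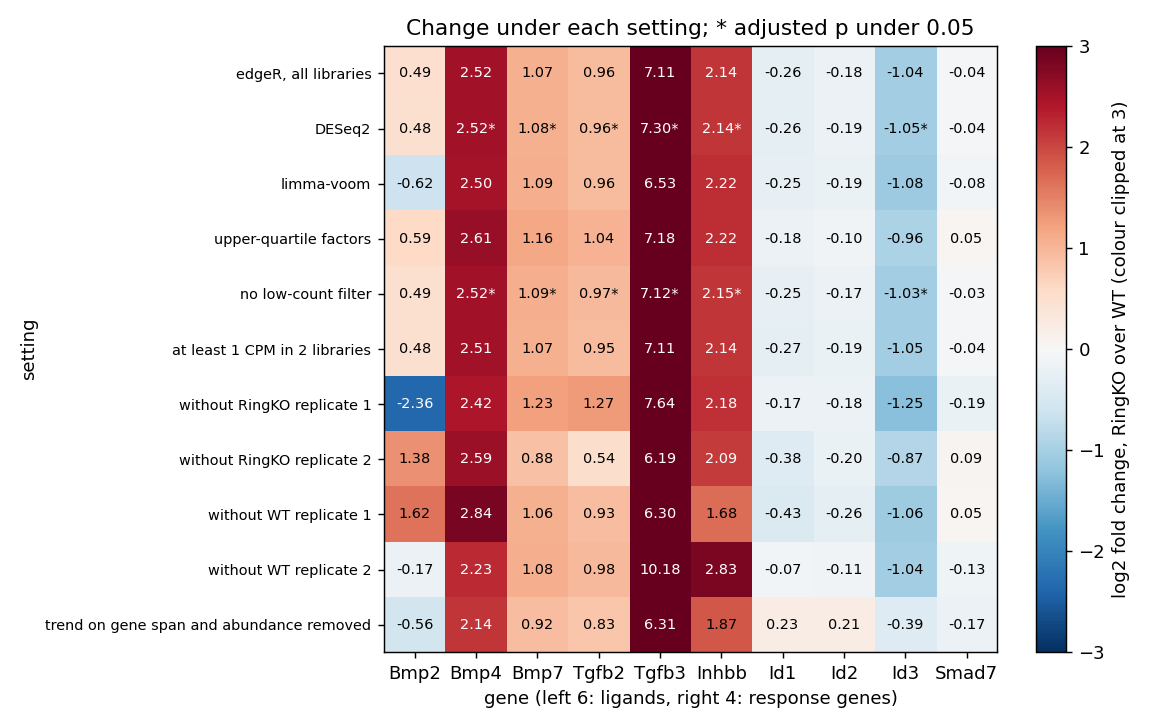
Log2 fold change of RingKO over WT for the 6 ligands (left) and 4 response genes (right) under each of 11 settings, with a star where the adjusted p was under 0.05. Colour runs from blue (lower in RingKO) to red (higher) and is clipped at 3. Bmp4, Bmp7, Tgfb2, Tgfb3 and Inhbb are above 0 and Id3 is below 0 in every setting drawn, while Bmp2, Id1, Id2 and Smad7 change sign in at least 1.

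Across all 11 settings drawn, Bmp4, Bmp7, Tgfb2, Tgfb3 and Inhbb kept a positive and Id3 a negative log2 fold change. An adjusted p under 0.05 was reached for these 6 genes by DESeq2 and by edgeR without a low-count filter (4.26% of 18827 genes).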

How the data were processed

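The authors deposited whole-number counts per gene symbol, 1 column per library and not normalized. The submitters' processing notes name TopHat2 2.1.1, Bowtie 1.2.2, Picard 1.62, HTSeq 0.7.2 and DESeq2 with build mm9; no role, annotation or strand setting is stated there. The authors' deposited comparison table gives, per the file headers, a log2 fold change and an adjusted p-value per gene.

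The test was edgeR 4.0.16 (R 4.3.3) on the counts with filterByExpr defaults, TMM, robust quasi-likelihood fit, genotype as the only term, Benjamini-Hochberg adjustment over 13134 genes, threshold 0.05. The fit was tested on simulated data. SE was derived as the absolute log2 fold change divided by the root of the F statistic. CPM is on TMM-scaled library sizes and, with no transcript lengths at hand, is compared within a gene only. Where a group had 0 counts over both libraries, folds are bounds against 3 counts over the group; with 1 to 3, the ratio has an exact 95% counting interval. Neither covers more than counting error, because PCR duplicates a molecule. Counts of same-genotype libraries differed beyond sampling noise (chi-square per degree of freedom 25.0 in RingKO and 14.96 in WT).

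Alternatives were DESeq2 1.42.0, limma-voom (limma 3.58.1), upper-quartile factors, other filters, a replicate block, leaving out each library, and removing a trend on gene span (GRCm38.p6, matched for 99.6% of genes) and abundance. Genes named were the 10 members, the 3 of highest mean CPM per list and 20 fixed names; others are marked as seen after their values. A gene that this rule names is not reported here. The members and lists were chosen with earlier results of these data known. The ChIP-seq peaks were not used here.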

Additional observations from a re-analysis of the deposited data

How the results depend on the processing

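Of 13134 genes edgeR called 8. DESeq2 called 1792 of 14502 genes with an adjusted p, and limma-voom 0 of 13134 (1956 at an unadjusted p under 0.05). Without a low-count filter edgeR called 802 of 18827, and with at least 1 CPM in 2 libraries 1 of 14164. With a replicate block it called 416 of 13134, and with the trend on gene span and abundance removed 1 of 13085. Leaving out 1 library gave 0 (without RingKO replicate 2, 1098 unadjusted) to 60 calls (without WT replicate 2). Of the 10 genes described edgeR called 0 (6 unadjusted), DESeq2 6, edgeR without a low-count filter 6 and with the replicate block 2, Tgfb3 and Id3. The other settings called 0 of them, with 4 to 6 at an unadjusted p under 0.05.

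The labels number the replicates alike in both genotypes but do not say that a number marks a shared mouse or day, and deviations of same-numbered libraries correlated at -0.14, so the block is no evidence of pairing. With the numbers crossed, chosen after seeing the data, edgeR called 8 genes and 0 of the 10.

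Bmp2 reversed with limma-voom (-0.62), the replicate block (-0.18), the trend removed (-0.56), without RingKO replicate 1 (-2.36) and without WT replicate 2 (-0.17). Its range over single libraries left out was -2.36 to 1.619. Id1 (0.23) and Id2 (0.21) reversed with the trend removed. Smad7 reversed with upper-quartile factors (0.049), without RingKO replicate 2 (0.085) and without WT replicate 1 (0.047), with a range of -0.19 to 0.085 over libraries left out. Removing the trend moved the median of all genes by -0.18, and Id3 went to -0.39; the cause was not tested. Upper-quartile factors moved it by 0.09. Depth limits Tgfb3, with 0 and 1 WT counts, while Bmp2 was spread within a genotype (77 and 9 counts in RingKO, 24 and 8 counts in WT).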
